A study of Rattus norvegicus with 12 samples.

Results

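Chemokines are small secreted proteins that bind G protein-coupled receptors and direct the movement of leukocytes and microglia. The 10 chemokine genes described here were measured on 12 one-color arrays of rat hippocampal neuron cultures exposed to oxygen and glucose deprivation (OGD), an in vitro model of ischemia. They were Cxcl1, Cxcl2, Cxcl10, Ccl2, Ccl3, Ccl4, Ccl5, Ccl7, Ccl20 and Cx3cl1, out of 15154 genes that the array probes could be matched to by their RefSeq accession. Each gene was chosen by name and is described by its probe with the brightest mean signal. Only Ccl20 had a further probe.

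The neurons came from Wistar embryos at embryonic day 18 and were kept for 14 to 15 days in culture, and all groups shared this origin. In the OGD groups, glucose was left out of the saline buffer, with sucrose in its place, and the dishes stood in an anaerobic chamber. The controls had 25 mM glucose in the buffer and stayed in an air/CO2 incubator for as long. All cultures then recovered in conditioned medium for 7 h or 24 h, with 3 independent cultures in each of the 4 groups. The cultures also hold glia. All 14 neuronal marker genes on the array were well above background on all 12 arrays, as were the astrocyte genes Gfap and Aqp4 and the microglial genes Aif1 and Cd68, so the RNA of each array is a mixture. The arrays sat on 6 slides, each of which held a control array and its OGD counterpart from that time and replicate. On 3 slides, those of replicates 1 and 2 at 7 h and replicate 1 at 24 h, the OGD array was scanned 177 to 211 min before the control array. All 7 h arrays were scanned on the 1st day and all 24 h arrays on the 2nd, so that recovery time and scan day cannot be told apart. The median intensity was 131 units on the 24 h OGD array of replicate 1 and 234 to 660 units on the other 11 arrays.

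The chemokine family is divided by the spacing of its conserved cysteines. CXC chemokines with a Glu-Leu-Arg motif, such as Cxcl1 and Cxcl2, attract neutrophils, whereas Cxcl10 is an interferon-inducible ligand for activated T cells. The CC chemokines act mainly on monocytes, macrophages and lymphocytes, and many genes of both classes are induced by NF-κB after tissue injury. Cx3cl1 (fractalkine) differs from the rest: it is made by neurons as a membrane-bound protein and signals to microglia.

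RefSeq (GRCr8) promoter sequences were at hand for 6 of the 10 genes, and the 250 bases before the start of 5 of them are printed here, since 4 hold a κB motif, the sequence that NF-κB dimers bind, and Cx3cl1 does not. The bases in capitals are matches to the κB consensus and, in Cxcl10, to the AP-1 motif TGANTCA, both searched on both strands, and matches to the TATA motif TATAAA in Cxcl10 and Cx3cl1, searched on the gene's own strand. The regions are chr14:17479322-17479571 (minus strand) for Cxcl1, chr14:17467256-17467505 (minus strand) for Cxcl2, chr14:15988816-15989065 (plus strand) for Cxcl10, chr9:91836909-91837158 (plus strand) for Ccl20 and chr19:10242821-10243070 (minus strand) for Cx3cl1.
Cxcl1: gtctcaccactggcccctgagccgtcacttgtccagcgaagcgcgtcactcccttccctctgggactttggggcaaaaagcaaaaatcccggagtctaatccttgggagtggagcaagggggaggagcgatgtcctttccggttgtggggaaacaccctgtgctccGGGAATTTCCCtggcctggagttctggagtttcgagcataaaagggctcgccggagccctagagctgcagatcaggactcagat
Cxcl2: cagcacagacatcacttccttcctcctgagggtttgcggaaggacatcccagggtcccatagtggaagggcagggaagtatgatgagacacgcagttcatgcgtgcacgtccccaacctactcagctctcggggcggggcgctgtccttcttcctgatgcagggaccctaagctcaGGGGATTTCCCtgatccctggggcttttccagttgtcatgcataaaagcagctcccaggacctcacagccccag
Cxcl10: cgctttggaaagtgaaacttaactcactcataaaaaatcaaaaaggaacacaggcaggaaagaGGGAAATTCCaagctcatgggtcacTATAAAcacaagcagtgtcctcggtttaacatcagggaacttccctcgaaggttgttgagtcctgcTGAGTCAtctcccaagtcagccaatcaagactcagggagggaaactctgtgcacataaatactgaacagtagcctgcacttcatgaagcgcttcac
Ccl20: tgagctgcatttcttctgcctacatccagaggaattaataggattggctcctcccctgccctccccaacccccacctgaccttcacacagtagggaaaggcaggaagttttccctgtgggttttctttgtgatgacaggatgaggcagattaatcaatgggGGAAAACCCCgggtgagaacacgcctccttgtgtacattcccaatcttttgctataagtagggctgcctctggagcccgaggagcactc
Cx3cl1: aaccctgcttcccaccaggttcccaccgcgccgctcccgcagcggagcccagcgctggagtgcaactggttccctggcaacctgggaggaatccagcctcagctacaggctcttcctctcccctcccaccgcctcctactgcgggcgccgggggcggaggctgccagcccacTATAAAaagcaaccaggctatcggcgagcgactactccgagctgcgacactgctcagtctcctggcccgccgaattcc

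The κB matches began 84 bases before the start in Cxcl1, 74 in Cxcl2, 187 in Cxcl10 and 89 in Ccl20. In Cxcl1 and Cxcl2, a pair of overlapping matches formed a single run of capitals, and in Ccl20 the match lay on the opposite strand. A κB match was found in 3.54% of the 33469 rat promoter windows of the same length. The Cxcl10 window also held an AP-1 match (6.34% of all windows) and a TATA match (8.06%). Ccl7, the sixth gene with a promoter sequence, had an AP-1 match 73 bases and a TATA match 34 bases before its start and no κB match in this window. Several of the genes are neighbors in the rat genome. Cxcl2 and Cxcl1 are adjacent on chromosome 14, where Cxcl10 lies between Cxcl11 and Cxcl9, and the pairs Ccl2 and Ccl7, and Ccl3 and Ccl4, are adjacent on chromosome 10.

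To determine which of these genes changed after OGD, the signal of each probe was expressed as log2 signal relative to the median of its array, so that 0 is the median probe and a negative value is a signal below it. A gene was called higher or lower when the limma p-value was under 0.05 and the difference was at least 2-fold, a threshold on unadjusted p-values. The intervals given are unadjusted, and the p-values printed are adjusted over all probes of the array. At 7 h 3 of the 10 chemokines were called higher, namely Cxcl1, Cxcl2 and Ccl20, against 2.08% of all 30367 probes. At 24 h 6 were called higher, namely Cxcl1, Cxcl2, Cxcl10, Ccl2, Ccl3 and Ccl4, against 3.71% of all probes. None was called lower at either time, compared with 1.66% and 1.96% of all probes, and Cxcl1 and Cxcl2 were the 2 genes called at both times (1.15% of all probes). The median log2 fold change of the 10 genes was 1.47 at 7 h and 2.04 at 24 h, against -0.06 and 0.01 for all probes, and 1.45 and 2.04 when genes whose controls were all below background entered at their lower bound. No chemokine, and no probe of the array, had a limma adjusted p-value under 0.05 at either time. Unadjusted p-values under 0.05 were found for 11.8% of the probes at 7 h and for 13.7% at 24 h, and the methods' t-test gave 1 probe at 7 h and 0 at 24 h with an adjusted p-value under 0.05. In this bulk RNA, more RNA per cell and more cells of the type that makes it cannot be told apart.

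The counts depended on single arrays. At 7 h the count was 7 without the OGD array of replicate 1, 5 without the OGD array of replicate 2 or the 24 h control of replicate 1, and 5 with the slide as a block. At 24 h it fell to 2 without the control array of replicate 1, and to 1 when arrays were scaled to the only usable spike-in probe, a scaling that moved the median of all probes by -0.78 at 7 h and -1.02 at 24 h on the log2 scale. With the slides of replicates 2 and 3 alone, 4 genes were called at 7 h and 2 at 24 h. The gene left at 24 h with the spike-in scaling was Cxcl1, and those left with the slides of replicates 2 and 3 were Cxcl1 and Ccl3. With normexp background correction the 24 h calls were Cxcl1, Cxcl10 and Ccl2, while Ccl3 and Ccl4 passed at 7 h, and the methods' t-test called only Cxcl1 at 7 h and did not call Ccl2 at 24 h.

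**Figure D1:**
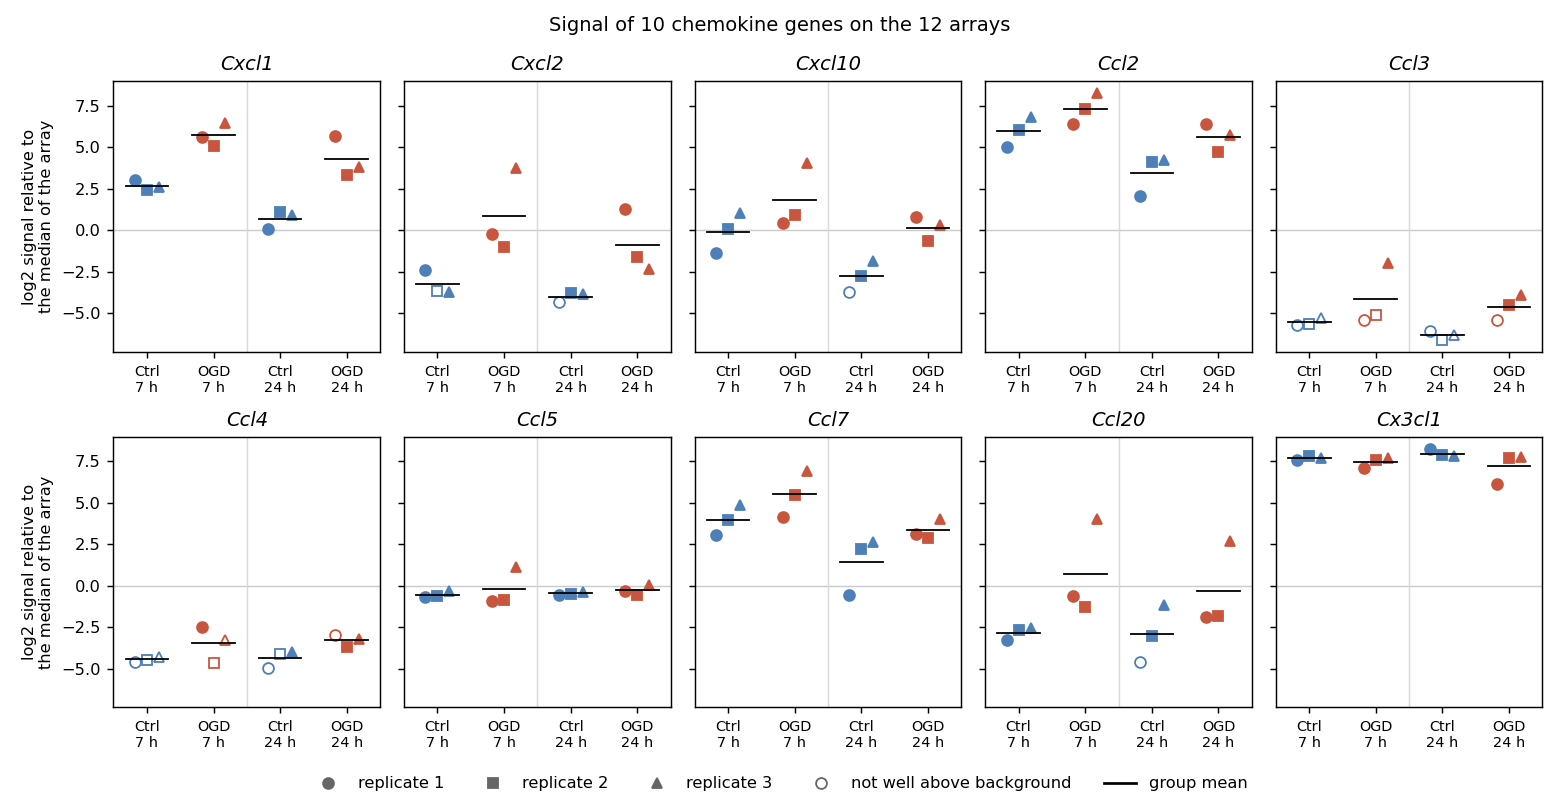
Log2 signal relative to the median of the array (vertical axis) for each of the 10 chemokine genes on the 12 arrays, by group (horizontal axis), with 1 point per culture, a bar at the group mean, open symbols where the probe was not well above background and shapes for the replicate numbers. The OGD points of Cxcl1 and Cxcl2 lie above the control points at both times, those of Ccl5 overlap with the controls, and Cx3cl1 stays between 6.14 and 8.21 throughout.

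Cxcl1 encodes a neutrophil chemoattractant that acts through the receptor Cxcr2. At 7 h its log2 signal was 3.02, 2.42 and 2.59 in the controls of replicates 1, 2 and 3 and 5.63, 5.07 and 6.45 in the OGD cultures. At 24 h the controls had 0.05, 1.099 and 0.90 and the OGD cultures 5.70, 3.30 and 3.78. Every OGD culture was above every control at each time, and the probe was well above background on all 12 arrays. The difference was 8.21-fold at 7 h (log2 fold change 3.04, 95% interval 1.77 to 4.31, limma adjusted p = 0.175) and 11.9-fold at 24 h (3.58, 2.31 to 4.85, adjusted p = 0.209). Cxcl1 ranked 71st at 7 h and 7th at 24 h among the 30367 probes by its fold change. It kept its call at both times when any 1 of the 12 arrays was left out, with log2 fold changes of 2.67 to 3.36 at 7 h and 2.86 to 4.06 at 24 h. Within the slides the OGD array exceeded the control array by 2.61, 2.65 and 3.86 at 7 h and by 5.65, 2.20 and 2.88 at 24 h on the log2 scale, the 24 h slide of replicate 1 with the dim array being the largest.

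Cxcl2 encodes another neutrophil chemoattractant of the same receptor. Its log2 signal at 7 h was -2.40, -3.65 and -3.72 in the controls and -0.25, -0.99 and 3.73 after OGD. The 24 h values were -4.34, -3.78 and -3.86 in the controls and 1.25, -1.60 and -2.32 after OGD. The groups did not overlap at either time, but a single OGD culture stood above the others each time, that of replicate 3 at 7 h and that of replicate 1 at 24 h. The probe was well above background on all OGD arrays and on 2 of 3 control arrays at each time. The log2 fold change was 4.09 at 7 h (SE 1.16, adjusted p = 0.27), the 4th highest of all probes, and 3.10 at 24 h (95% interval 0.53 to 5.67, adjusted p = 0.313). The 7 h call was kept with any array left out, at log2 fold changes from 2.63 without the 7 h OGD array of replicate 3 to 4.99 without that of replicate 2, whereas the 24 h call was lost without the OGD array of replicate 1 (log2 fold change 2.03) or the control of replicate 1 (2.93).

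Cxcl10 is the ligand of Cxcr3. At 7 h its log2 signal was -1.39, 0.10 and 1.04 in the controls and 0.46, 0.90 and 4.04 after OGD, so that the groups overlapped. At 24 h it was -3.73, -2.76 and -1.83 in the controls and 0.78, -0.65 and 0.30 after OGD. Here the groups were apart, and the lowest OGD culture was above the highest control. Cxcl10 was called at 24 h (7.55-fold, log2 fold change 2.92, 95% interval 0.86 to 4.97, adjusted p = 0.29), and the call was kept with any 1 array left out. The 7 h estimate of 1.88 (-0.17 to 3.94, adjusted p = 0.458) was not called, but passed without the control of replicate 3 (2.44) or the OGD array of replicate 1 (2.55). Each slide had the OGD array above the control array, by 1.85, 0.80 and 2.998 at 7 h and by 4.51, 2.11 and 2.13 at 24 h, and with the slide as a block the 7 h difference passed (adjusted p = 0.415). The change of the response between 7 h and 24 h was 1.03 (-1.87 to 3.94), so a later onset of the difference in Cxcl10 was not shown.

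Ccl2 and Ccl7 are monocyte chemoattractants that act through Ccr2. The log2 signal of Ccl2 at 7 h was 4.98, 6.02 and 6.84 in the controls and 6.37, 7.31 and 8.24 after OGD, where the probe was saturated on 1 array. The 24 h values were 2.03, 4.08 and 4.20 in the controls and 6.38, 4.72 and 5.75 after OGD. The 7 h groups overlapped, with replicate 1 the lowest and replicate 3 the highest culture in both conditions, while the differences within the slides were 1.39, 1.29 and, with the saturated OGD array of replicate 3, at least 1.39. At 24 h the groups were apart, and the within-slide differences were 4.35, 0.64 and 1.55. Ccl2 was called at 24 h (4.53-fold, log2 fold change 2.18, 95% interval 0.60 to 3.76, adjusted p = 0.29) and not at 7 h (1.36, -0.22 to 2.94, adjusted p = 0.481). Because 1 OGD array was saturated, the 7 h increase may be understated. The 24 h call was lost without the control of replicate 1 (1.48), and the 7 h difference passed with the slides of replicates 2 and 3 alone (1.34) and without the 7 h control of replicate 3 (1.80), the 7 h OGD array of replicate 1 (1.82) or the 24 h control of replicate 1 (1.36).

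For Ccl7, replicate 1 was the lowest and replicate 3 the highest 7 h culture in both conditions as well. At 7 h it was 3.07, 3.96 and 4.83 in the controls and 4.17, 5.48 and 6.88 after OGD, and at 24 h it was -0.54, 2.19 and 2.66 in the controls and 3.09, 2.90 and 4.004 after OGD. The 24 h groups did not overlap and the OGD array was the higher one on all 6 slides, by 1.09, 1.51 and 2.05 at 7 h and by 3.63, 0.71 and 1.34 at 24 h. Ccl7 did not reach the threshold at 7 h (log2 fold change 1.55, 95% interval -0.38 to 3.48, adjusted p = 0.503) or at 24 h (1.89, -0.04 to 3.83, adjusted p = 0.372). With the slide as a block it passed at both times (adjusted p = 0.442 and 0.366). It also passed at 7 h without the 7 h OGD array of replicate 1 (2.22) or the 24 h control of replicate 1 (1.55), and at 24 h without the 24 h control of replicate 2 (2.27) or 3 (2.51) or the 7 h OGD array of replicate 1 or 3 (1.89 for each).

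Ccl3 and Ccl4, also known as macrophage inflammatory proteins, attract macrophages and lymphocytes. The Ccl3 probe stayed too dim to count as well above background in all 6 controls, and passed on 1 OGD array at 7 h and on 2 at 24 h. Its log2 signal was -5.69, -5.65 and -5.30 in the 7 h controls, -5.41, -5.09 and -1.98 after OGD, -6.04, -6.58 and -6.29 in the 24 h controls and -5.39, -4.48 and -3.92 after OGD. The OGD culture of replicate 3 stood out at 7 h, and the groups were apart at 24 h. The 24 h difference was called (adjusted p = 0.354), but no fold is given because the detection limit of the arrays was not below the OGD mean. Ccl3 lost this call when any of 8 of the 12 arrays was left out, the OGD arrays of replicates 2 and 3 and all controls of both times among them, and with normexp background correction, a signal floor, quantile normalization or spike-in scaling. At 7 h it passed without the OGD array of replicate 1 or 2, with normexp and with the signal floor.

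For Ccl4 the log2 signal was -4.56, -4.44 and -4.26 in the 7 h controls, none of them well above background, and -2.46, -4.66 and -3.27 after OGD, where 1 array was. With the controls set at the detection limit, the OGD mean was 1.28-fold higher at 7 h. The limma interval of the log2 fold change (-0.10 to 2.01) included 0, so no minimum increase is given. The 7 h difference was not called (adjusted p = 0.464), and passed without the 7 h OGD array of replicate 2, with normexp and with the signal floor. At 24 h the controls had -4.93, -4.09 and -4.01 and the OGD cultures -2.94, -3.69 and -3.204, with no overlap. The 24 h log2 fold change of 1.07 (95% interval 0.01 to 2.12, adjusted p = 0.361) was called, on the basis of 1 control and 2 OGD arrays with a signal well above background. Its call was likewise lost with any of 8 of the 12 arrays left out, namely all 7 h controls, the 7 h OGD array of replicate 3, the 24 h controls of replicates 1 (log2 fold change 0.77) and 2 (1.19), and the 24 h OGD arrays of replicates 1 (0.90) and 3 (1.03), and with the slide as a block (adjusted p = 0.431). The call was lost as well with quantile normalization (0.78), normexp (0.59), spike-in scaling (0.04), the authors' values (1.07) and the slides of replicates 2 and 3 alone (0.61).

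Ccl5 (RANTES), which attracts T cells and monocytes, was well above background on all 12 arrays and did not pass at either time. Its log2 signal was -0.69, -0.64 and -0.33 in the 7 h controls and -0.93, -0.83 and 1.15 after OGD. The 24 h values were -0.53, -0.49 and -0.35 in the controls and -0.32, -0.56 and 0.04 after OGD. The groups overlapped at both times, with the 7 h OGD culture of replicate 3 as the 1 high value. The log2 fold change was 0.35 at 7 h (95% interval -0.66 to 1.36, adjusted p = 0.796) and 0.18 at 24 h (-0.83 to 1.19, adjusted p = 0.906), and both intervals include a 2-fold increase.

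Ccl20 is the ligand of Ccr6 and attracts dendritic cells and Th17 lymphocytes. At 7 h its log2 signal was -3.23, -2.66 and -2.57 in the controls and -0.60, -1.28 and 4.02 after OGD. After 24 h it was -4.56, -2.99 and -1.15 in the controls and -1.89, -1.79 and 2.68 after OGD. All 7 h OGD cultures were above the controls, while at 24 h the highest control overlapped with the OGD group, and replicate 3 was the high OGD culture at both times. Ccl20 was called at 7 h (11.6-fold, log2 fold change 3.53, 95% interval 0.18 to 6.88, adjusted p = 0.404), the 16th highest of all probes, and not at 24 h (2.57, -0.78 to 5.92, adjusted p = 0.46). The 7 h call was lost without the OGD array of replicate 3 (log2 fold change 1.88), without any of the 7 h controls (3.33 to 3.66) and without the 24 h control of replicate 2 (3.53). The further probe gave 3.37 at 7 h, which was not called (adjusted p = 0.439), and 2.72 at 24 h (adjusted p = 0.455). Within the slides the OGD array was higher by 2.64, 1.38 and 6.58 at 7 h and by 2.67, 1.20 and 3.83 at 24 h, and with the slide as a block both times passed (adjusted p = 0.408 and 0.389).

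Cx3cl1 was the 1 gene of the group whose mean signal was lower after OGD at both times, and neither difference was called. At 7 h its log2 signal was 7.58, 7.79 and 7.66 in the controls, where the probe was saturated on 1 array, and 7.06, 7.59 and 7.70 after OGD. The 24 h values were 8.21, 7.85 and 7.78 in the controls and 6.14, 7.68 and 7.72 after OGD. The 24 h groups did not overlap, but the OGD array differed from the control array by only -0.16 and -0.06 on the slides of replicates 2 and 3, compared with -2.06 on the slide of replicate 1. The log2 fold change was -0.22 at 7 h (95% interval -1.06 to 0.61, adjusted p = 0.844) and -0.76 at 24 h (-1.60 to 0.07, adjusted p = 0.399). Because 1 control array was saturated, the 7 h decrease may be understated. With the slides of replicates 2 and 3 alone the 24 h value was -0.11 (adjusted p = 0.871), whereas leaving out the OGD array of replicate 2 or 3 made it pass (-1.01 and -1.03).

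**Figure D2:**
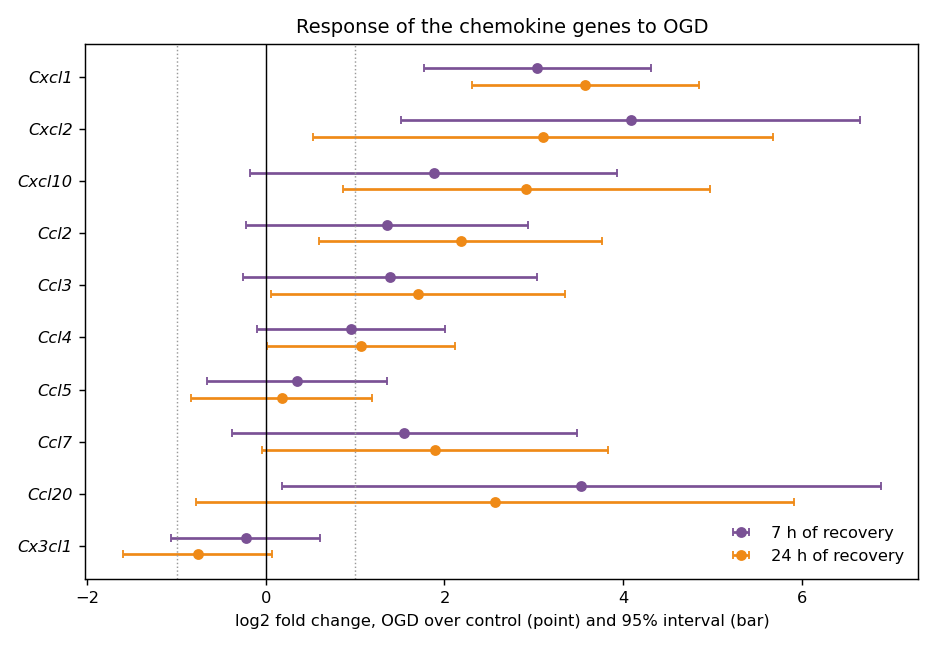
Log2 fold change of OGD over control for each chemokine gene (horizontal axis) at 7 h and 24 h of recovery, with the limma estimate as a point, its 95% interval as a bar and dotted lines at 2-fold. The intervals of Cxcl1 and Cxcl2 lie above 0 at both times, those of Ccl5 and Cx3cl1 include 0 at both, and the estimates of Ccl3 at both times and Ccl4 at 7 h rest on controls that were not well above background.

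The response at 24 h was compared with that at 7 h by the interaction of OGD and time. No chemokine passed, against 3.58% of all probes with an interaction p under 0.05. The differences between the responses ran from -0.98 for Cxcl2 (95% interval -4.62 to 2.65) to 1.03 for Cxcl10, and that of Cxcl1 was 0.54 (-1.26 to 2.34). These intervals are wide, and the larger number of calls at 24 h was not shown to be a larger response. The mean control signal was lower at 24 h than at 7 h for 7 of the 10 genes, and the mean OGD signal for 9. The corresponding shares of all probes were not taken. For Cxcl1 the control mean was 2.68 ± 0.31 at 7 h and 0.68 ± 0.56 at 24 h (SD, n = 3). For Ccl7 it was 3.96 ± 0.88 and 1.43 ± 1.73 (SD, n = 3). The OGD mean of Cxcl1 was 5.71 ± 0.69 at 7 h and 4.26 ± 1.27 at 24 h (SD, n = 3), so control and OGD means were both lower at the later time. These values are a description, as the 2 times were scanned on different days.

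The genes had several features in common. The OGD array of replicate 3 was the highest of the 3 OGD arrays at 7 h for 9 genes, all but Ccl4, and the brightest of all 12 arrays for 8 genes, all but Ccl4 and Cx3cl1. At 24 h the control array of replicate 1 was the lowest control for 8 genes, the exceptions being Ccl3 and Cx3cl1. The shares of all probes with these array patterns were not taken, so they are not shown to be particular to the chemokines. Within the slides, the OGD array was above the control array on all 3 slides for 7 genes at 7 h (23.7% of all probes) and for 8 genes at 24 h (20.9% of all probes). These counts were 2 and 4 with the spike-in scaling. OGD and control groups did not overlap for 3 genes at 7 h, all higher (10.6% of all probes), and at 24 h for 7 genes that were higher (10.9%) and for Cx3cl1, which was lower (7.02%). Leaving out the 3 slides scanned apart leaves 1 slide at 7 h and 2 at 24 h, on which Cxcl1, Cxcl2, Cxcl10, Ccl2, Ccl3, Ccl4, Ccl7 and Ccl20 were each higher in the OGD array. The share of all probes higher on these slides was not taken. The controls of Ccl3, and at 7 h those of Ccl4, were not well above background. The receptors Ccr1, Ccr3 and Xcr1, well above background on no array, were also higher on all 3 slides at 7 h. At 24 h each of them was higher on 1 slide. The equally dim Ccl26 and Ifng were higher on 2 and 1 slides at each time.

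**Figure D3:**
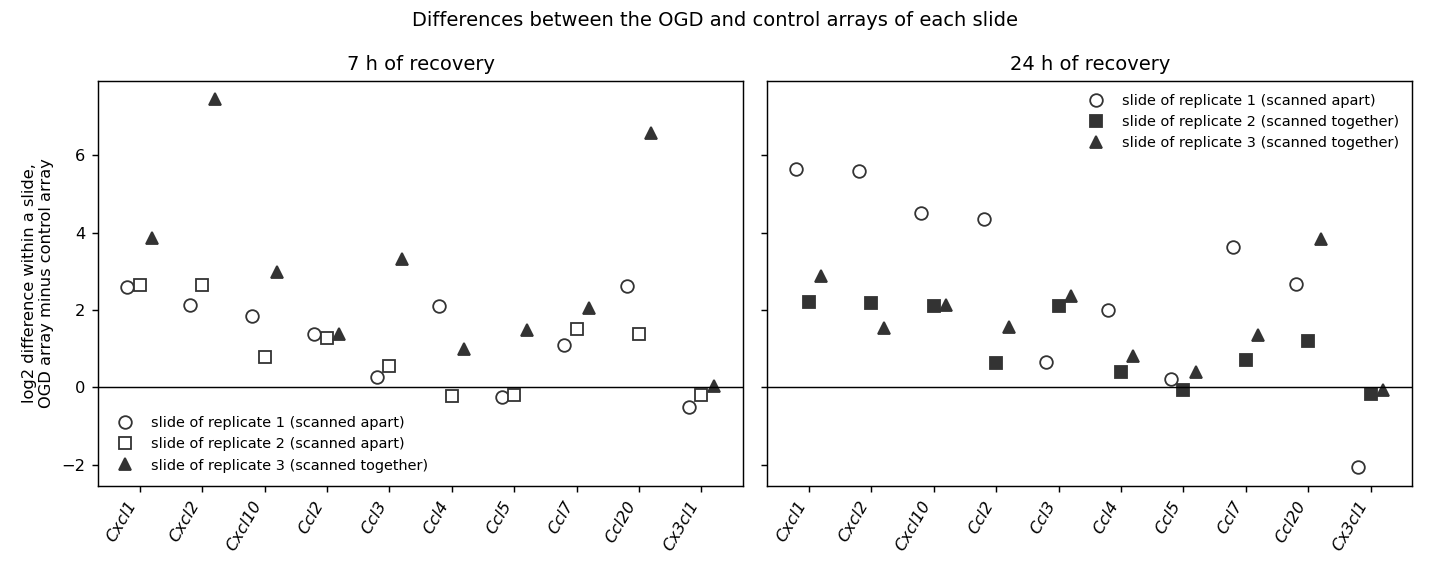
Log2 signal of the OGD array minus that of the control array on the same slide (vertical axis) for each chemokine gene (horizontal axis), with 1 point per slide and open symbols for slides whose arrays were scanned apart. At 7 h the slide of replicate 3 gives the largest differences for Cxcl2 (7.45) and Ccl20 (6.58), and at 24 h that of replicate 1 does for Cxcl1 (5.65) and Cxcl2 (5.59).

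Of the 26 other chemokine ligands listed, 25 had a probe. At 7 h 3 of them were called higher and 2 lower, against 3.74% of all probes in either direction, and their median log2 fold change was 0.45. At 24 h 3 were higher and none was lower, against 5.67%, and the median was 0.40. Cxcl11, an interferon-inducible ligand of Cxcr3 and the neighbor of Cxcl10, was called at 7 h, with -4.40, -5.81 and -1.77 in the controls and -2.05, -2.25 and 1.00 after OGD (log2 fold change 2.90, adjusted p = 0.383). The 7 h groups of Cxcl11 overlapped, and 1 of 3 controls was well above background. Its 24 h value was 1.75 (adjusted p = 0.514). Cxcl16, a transmembrane chemokine with its own receptor Cxcr6, was called at both times, with 1.68, 1.29 and 1.82 in the 7 h controls against 2.28, 2.19 and 3.61 after OGD (log2 fold change 1.098, adjusted p = 0.317) and with a 24 h value of 1.18 (adjusted p = 0.285). Cxcl16 resembled Cxcl1 in that all its OGD cultures were above all controls at each time.

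Ccl25, a ligand of Ccr9, was called at both times as well (log2 fold changes 1.23 and 1.61, adjusted p = 0.314 and 0.26). Its probe was well above background on 2 of 3 controls at each time. Ccl11 (eotaxin), the neighbor of Ccl7 on the other side from Ccl2, was called at 24 h (1.61, adjusted p = 0.352), with 1 control and 2 OGD arrays well above background. Ccl1, a ligand of Ccr8, was lower at 7 h (-2.03, adjusted p = 0.379), as was Ccl17, a ligand of Ccr4 and a neighbor of Cx3cl1 (-1.22, adjusted p = 0.215). The Ccl1 probe was well above background on 1 of 3 OGD arrays at 7 h. The 7 h controls of Ccl17 had -0.76, -1.45 and -0.72 and the OGD cultures -2.38, -2.26 and -1.96, without overlap, and its 24 h value was -0.37 (adjusted p = 0.554). The count of 5 ligands called at 7 h was 3 without the control or the OGD array of replicate 2 and 2 without the OGD array of replicate 3.

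Of the 23 chemokine receptors and decoy receptors listed, 20 had a probe, and the probes of Ccr1, Ccr3 and Xcr1 were not well above background on any array. At each time 2 receptors were called higher and 1 lower. The share of all probes called in either direction was 3.74% at 7 h and 5.67% at 24 h. The median log2 fold change of the receptors was 0.02 at 7 h and 0.04 at 24 h. Ccr6, the receptor of Ccl20, was called higher at 7 h, with -3.96, -3.61 and -3.44 in the controls and -2.02, -2.37 and -3.52 after OGD (1.03, adjusted p = 0.385). It was also called at 24 h, with -4.64, -4.23 and -3.82 against -1.63, -2.93 and -2.27 (1.95, adjusted p = 0.252). At each time its probe was well above background on 2 of 3 controls. Ccr6 and its ligand were thus both called at 7 h, although not highest in the same culture, since the OGD culture of replicate 3 was the lowest for Ccr6 and the highest for Ccl20.

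Cx3cr1, the receptor of Cx3cl1 and in brain a marker of microglia, was called at 7 h, with 2.42, 2.70 and 2.46 in the controls and 3.88, 3.89 and 2.88 after OGD (1.02, adjusted p = 0.263). At 24 h it was 3.51, 4.08 and 3.74 against 3.88, 3.85 and 4.03 (0.14, adjusted p = 0.848), and the difference between the responses was -0.88 (95% interval -1.73 to -0.02). Cxcr1, a receptor of the neutrophil chemoattractants, was lower at 7 h (-1.42, adjusted p = 0.419) and at 24 h (-2.60, adjusted p = 0.254). At 24 h its probe was well above background on 2 of 3 OGD arrays. Cxcr2, the receptor of Cxcl1 and Cxcl2, was not well above background on any 7 h array and had a 24 h value of 0.55 (adjusted p = 0.619). Cxcr3, the receptor of Cxcl10, was not called (adjusted p = 0.675 at 7 h and 0.729 at 24 h), with 0 or 1 array well above background in 3 of the 4 groups and hence no fold. Ccr2, the receptor of Ccl2 and Ccl7, was not called either (adjusted p = 0.504 and 0.395), with at most 1 array well above background in a group. The receptor calls of 7 h were sensitive to single arrays, with none left without the control of replicate 1 or the OGD array of replicate 1 or 2, and 1 without the control of replicate 2 or 3.

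**Figure D4:**
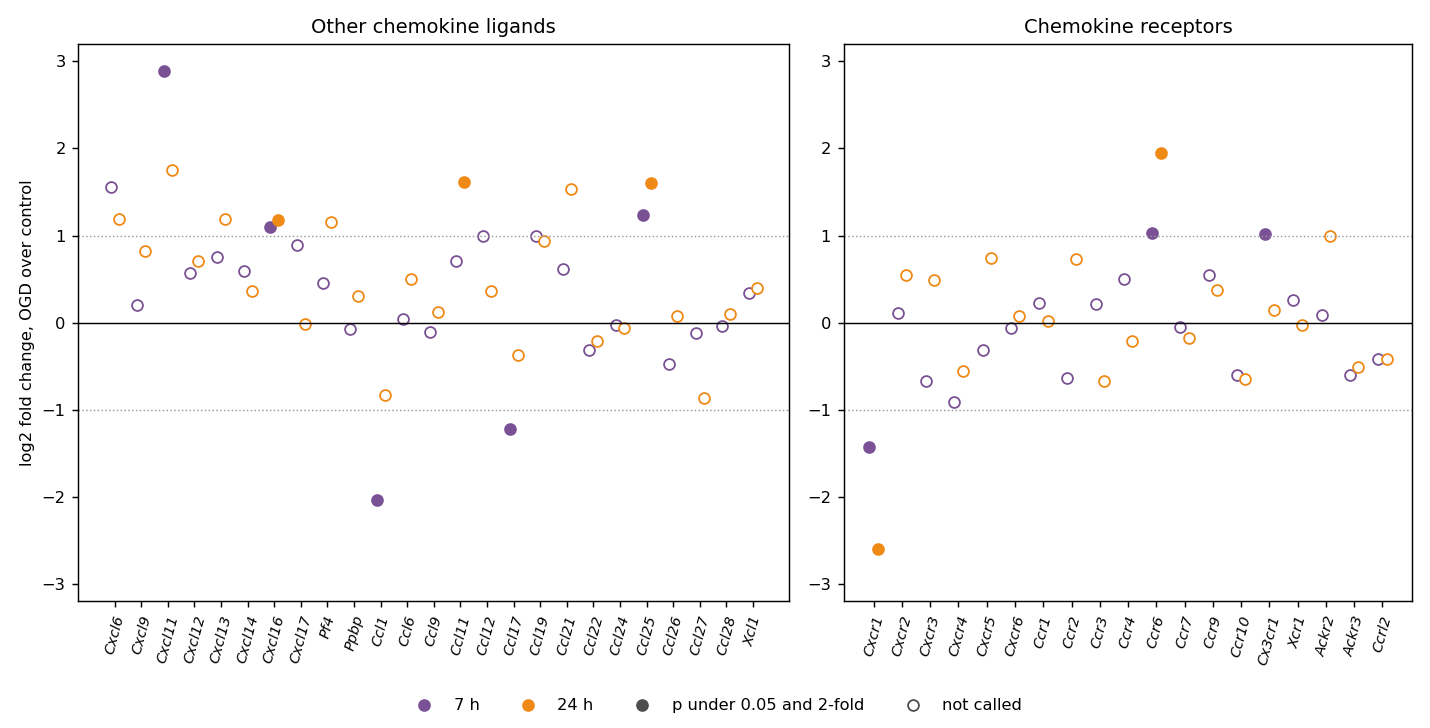
Log2 fold change of OGD over control (vertical axis) at 7 h and 24 h for the 25 other chemokine ligands and 19 of the chemokine receptors with a probe (horizontal axis), with filled symbols for genes called at p under 0.05 and 2-fold. Cxcl11 (2.90 at 7 h) and Ccr6 (1.95 at 24 h) are the highest called genes, Cxcr1 (-2.60 at 24 h) is the lowest, and most genes are not called. The probe was well above background on 1 of 3 controls for Cxcl11 and on 2 of 3 for Ccr6 in these comparisons. For Cxcr1 it was so on 2 of 3 OGD arrays.

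The list of chemokine inducers held 25 cytokines, NF-κB subunits and inhibitors and related genes, of which 19 had a probe. A single gene was called at each time, against 3.74% of all probes at 7 h and 5.67% at 24 h. The median log2 fold change of the list was 0.23 at 7 h and 0.31 at 24 h. Il6, a cytokine that is itself an NF-κB target, was called at 7 h, with -4.40, -5.76 and -4.60 in the controls, none well above background, and -1.11, -3.33 and -1.86 after OGD, all well above it. This is a difference of at least 3.29-fold (adjusted p = 0.24), and at 24 h no array of either group was well above background. Bcl3, a nuclear IκB family protein, was called at 24 h, with -2.21, 0.40 and 1.33 in the controls and 1.84, 2.15 and 2.79 after OGD (2.42, adjusted p = 0.307). Its 7 h value was 1.30 (adjusted p = 0.565). Adam17, a protease that sheds Cx3cl1 from the membrane, had values of 0.07 (adjusted p = 0.918) and 0.44 (adjusted p = 0.462). The count at 7 h was 2 without the OGD array of replicate 1 or 2, and the count at 24 h was 0 without the control of replicate 1 or the OGD array of replicate 3 and 2 without the 7 h or the 24 h OGD array of replicate 2.

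The genes most like 3 of the chemokines over the 12 arrays were sought among 12038 named genes well above background on at least 6 arrays. Among the closest to Cxcl1 were Ier3 (Pearson r = 0.953) and Cd276 (r = 0.952). Closest to Cxcl10 were Tnfaip2 (r = 0.964), P3h2 (r = 0.950) and Rassf4 (r = 0.944). Closest to Cx3cl1 were Cers1 (r = 0.974), Rasgef1a (r = 0.970) and Dsc2 (r = 0.966). The fold changes of these genes can be much smaller, as the log2 fold change of Cd276 was 0.43 at 7 h and 0.64 at 24 h. The correlations describe the same 12 arrays, with their shared groups, scan days and scaling, and were the highest of many.

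Markers of the cell types in the cultures were read from the same arrays, as the sum of the signals of each list in multiples of the array median. The microglial sum was 21.0 to 22.6 in the 7 h controls and 23.3 to 35.0 after OGD, and 25.0 to 31.4 in the 24 h controls and 33.9 to 41.0 after OGD. At 7 h the lowest OGD value of the sum was that of replicate 3, the culture in which most chemokines were highest. Cx3cr1 was the brightest of these markers on each 7 h OGD array (log2 signal 3.88, 3.89 and 2.88). In the 7 h controls it had 2.42, 2.70 and 2.46, and the sum without it was not taken. Of the 16 microglial markers, 10 were well above background on all 12 arrays and Ptprc and Fcgr3a on none. Cx3cr1 at 7 h was the single call among them, against 3.74% of all probes at 7 h and 5.67% at 24 h. The log2 fold change was positive for 9 of the 16 markers at 7 h and for 15 at 24 h. Aif1 had log2 fold changes of -0.19 at 7 h and 0.29 at 24 h, Cd68 of -0.05 and 0.96, and Itgam was well above background on 3 of the 12 arrays. Of the 11 astrocyte markers none was called. The sum of the 8 that were not saturated on any array was 315 to 349 in the 7 h controls and 310 to 415 after OGD, and overlapped at 24 h as well.

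The sum of 13 vascular and fibroblast markers was 64.8, 97.2 and 176 in the 7 h controls of replicates 1, 2 and 3 and 97.4, 214 and 217 after OGD. At 24 h it was 47.3, 80.5 and 170 in the controls and 193, 161 and 289 after OGD. The controls were lowest in replicate 1 and highest in replicate 3 at both times, as they were for Cxcl10, Ccl2, Ccl4, Ccl5, Ccl7 and Ccl20, although the 7 h controls of Ccl4 were not well above background. Fn1 (fibronectin) and Pdgfrb, chosen here after their values were seen, were the 2 of these markers called higher at 24 h (log2 fold changes 1.47 and 1.34, adjusted p = 0.269 for each), and Pecam1 (-0.32), Cldn5 (-0.56), Flt1 (0.81), Dcn (-0.73) and Acta2 (-0.27) were among those not called. Of all probes, 3.71% were called higher at 24 h. Tek was not well above background on any array. At 7 h Cldn5 was called lower (at least 1.17-fold, adjusted p = 0.226), with no OGD array well above background.

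The sum of the 12 neuronal markers that were not saturated on any array was 434 to 669 in the 24 h controls and 161 to 447 after OGD, with overlap. It was lowest on the OGD array of replicate 1, where Cx3cl1 was also lowest. In all, 5 of the 14 neuronal markers were called lower at 24 h and 2 at 7 h, against 1.96% and 1.66% of all probes. All 14 had a negative log2 fold change at 24 h (median -0.82). Named after their values were seen, those called at 24 h were Eno2, Gad1, Gad2, Slc17a7 and Syn1 (-1.53 to -1.06). Rbfox3 (-0.59), Tubb3 (-0.56) and Map2 (-0.45) were not called at 24 h. The oligodendrocyte sum overlapped between the groups at both times, and its markers Mbp (-0.32 at 7 h) and Mog (-0.08 at 7 h) were not called. Cspg4, named after its values were seen, was called lower at 7 h (-1.07, adjusted p = 0.322). Of the 10 leukocyte markers, 2 were well above background on all 12 arrays and Cd8a and Elane on none. Their sum was 2.77 to 3.81 in the 7 h controls and 3.21 to 3.26 after OGD, and 3.03 to 3.48 in the 24 h controls and 3.30 to 4.53 after OGD. Cd3e was called at 24 h (at least 1.42-fold, adjusted p = 0.334), whereas Cd3d (0.02) and Cd4 (0.11) were not. Named after their values were seen, Nkg7 was called higher at 24 h (1.02, adjusted p = 0.294) and Cd79b lower at 7 h (at least 1.72-fold, adjusted p = 0.304). The part of these markers in the chemokine values was not tested.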

How the data were processed

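RNA from 12 cultures (3 per group) was amplified, labeled with Cy3 and hybridized to 12 Agilent rat 4x44K arrays, designed on rn4, by the authors. Per the file headers, the deposited spot intensities were extracted with Feature Extraction 10.5.1.1, which subtracts background. The authors also deposited log2 values, which differed from log2 of these intensities by 1 constant per array within 0.01 for at least 99.997% of probes, and were used as an alternative.

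Here, spots marked as outliers were left out, spots of a probe were averaged on the log2 scale and the array median was subtracted. Of 30367 probes, 18004 matched a RefSeq symbol (15154 symbols), and 70 probe values were missing. A probe counted as well above background where most of its spots did. Groups came from the labels. Limma 3.58.1 in R 4.3.3 fitted the 4 groups over all probes, with Benjamini-Hochberg adjustment over all of them. The fit was tested on simulated data. A call needed p under 0.05, as in the study's methods, and 2-fold. Named genes were the chemokines, listed genes that were called (at most 8 per list), set receptors, and the first genes of each marker list. A group below background on all arrays was given as a bound: the mean of the brighter group over the lowest signal well above background on the dim arrays. The members and lists were chosen with earlier results of these data known. Some of the named genes are not reported here. Normexp used the median spot and background signals. Promoters and gene neighbors came from RefSeq GRCr8, and no coordinate was carried over from rn4. The number of arrays limits the precision.

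Replicate numbers were checked for pairing, and did not pair the samples: the deviations of same-numbered arrays correlated by -0.05 to 0.17 over the 6 slides. The slide was still fitted as a block, since each held both conditions.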

Additional observations from a re-analysis of the deposited data

How the results depend on the processing

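No chemokine changed its direction past the threshold under any alternative. Of 153 counts recomputed with another processing, 127 stayed within 1.5 times their value. Those that did not were as follows. With spike-in scaling, 1 chemokine was called higher at 24 h, chemokines higher on all 3 slides numbered 2 at 7 h and 4 at 24 h, and calls at 7 h and 24 h were 1 and 0 among other ligands, 1 and 1 among receptors and 0 and 0 among inducers. With normexp, 5 chemokines were called at 7 h and 3 at 24 h, 2 inducers at 7 h, and 0 other ligands and 0 receptors at 24 h. With a floor of 10 intensity units, 5 chemokines and 2 inducers were called at 7 h. With the methods' t-test, 1 chemokine and 2 other ligands were called at 7 h and 0 inducers at 24 h. With the slide as a replicate block, 5 chemokines and 1 receptor were called at 7 h, and 2 inducers at 7 h and 2 at 24 h; the pairing of replicate numbers behind this block was not borne out by the data, since the OGD array correlated best with its own number in 1 of 3 cases at 7 h and in 2 of 3 at 24 h. Keeping just the slides of replicates 2 and 3, which was decided after seeing the data, gave 0 receptors and 2 inducers at 7 h and 2 chemokines at 24 h. The cause of these shifts was not tested.

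Leaving out 1 array gave 2 to 7 chemokines called higher at 7 h and 2 to 7 at 24 h, 0 to 1 called lower at 24 h and 0 to 1 with a different response at the 2 times. The same gave 2 to 7 other ligands at 7 h and 2 to 4 at 24 h, 0 to 3 and 2 to 4 receptors, and 1 to 2 and 0 to 2 inducers. Dim probes limit Ccl3, Ccl4, several of the other ligands and most receptors. A dim group gives a bound and not a level. Centring on the 75th percentile moved the median of all probes by 0.11 on the log2 scale at each time.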
